A study of Mus musculus with 15 samples.

Results

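Cultured mouse hippocampal neurons that held no inhibitor were compared after 24 h with acetate or with its vehicle. The comparison rested on 8 of the 15 libraries in the series, chosen by their labels, and it covered all 24498 genes of the deposited count table. The vehicle group had 4 libraries from cultures given neurobasal medium with DMSO. The acetate group had 4 libraries from cultures given 5 mM acetate in that medium with DMSO. DMSO, the solvent of the inhibitor used elsewhere in the study, was thus in both groups. The other 7 libraries came from cultures that received 20 µM of an inhibitor of ACSS2 instead of the solvent alone, 3 with vehicle and 4 with acetate. Those libraries entered the statistical fit to share its estimate of the spread. The cells were primary neurons obtained from a university core, grown in B27-supplemented neurobasal medium and treated after 7 days of differentiation. The labels used here give no strain, sex or age of the mice, and nothing in them says that libraries of a group came from separate cultures or animals, so the p-values measure the spread between these libraries, which may be technical.

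Acetate enters metabolism when ACSS2, in the cytosol and nucleus, or ACSS1, in mitochondria, joins it to coenzyme A. The acetyl-CoA made in this way can be burned in the citric acid cycle, built into fats and sterols, or used by acetyltransferases to acetylate histones, and deacetylases and sirtuins take such acetyl groups off again. In hippocampal neurons, acetylation of histones accompanies the expression of genes tied to synaptic activity and memory. Cultures of primary neurons usually also hold some astrocytes, microglia and other cells, whose RNA is part of a bulk library.

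Counts on genes ran from 19929931 to 27262766 per vehicle library and from 19688231 to 39234799 per acetate library. Of the genes in the table, 15075 had enough counts to be tested, and levels are given as CPM, the counts scaled to a common library total, after scaling of the library sizes. Markers carried by all neurons summed to 6706 to 10280 CPM in vehicle and 13320 to 15940 CPM in acetate, and 13 of 15 of them rose. Microglial markers summed to 206.2 to 984.5 CPM in vehicle and 59.19 to 87.81 in acetate, with 18 of 18 tested markers lowered, and Itgam and Ptprc had no count in at least 1 acetate library. Summed astrocyte markers went from 7488 to 15470 CPM in vehicle to 5468 to 6671 in acetate, and those of pericytes from 222.6 to 506.2 to 82.83 to 100.3. Summed meningeal fibroblast markers stood at 263.8 to 1179 CPM in vehicle and 120.9 to 152.8 in acetate. Summed endothelial markers were higher in acetate, at 23.47 to 31.64 CPM in vehicle and 37.9 to 45.74 in acetate, although 3 of their 7 members fell and 1 rose. Vehicle 1 stood apart. Its mean log2 CPM over 91 markers of cells other than neurons was 3.41, against 4.42 to 4.66 in the other 3 vehicle libraries and 2.28 to 2.37 in the acetate libraries. Among the 3 vehicle libraries with inhibitor, vehicle 2 stood at 2.19, against 4.23 and 4.47 in the other pair and 2.10 to 2.42 in acetate with inhibitor. Its mean log2 CPM of microglial markers was -0.52, against 4.27 and 4.57 in the other pair. By these means it lay with the acetate libraries, and every value given below for the inhibitor cultures includes it unless said otherwise. With bulk RNA, fewer cells of a type and less RNA per cell cannot be told apart, and the part of these marker differences in the results was not tested except where a value is given. The X-linked Xist, which is read from female cells, stood at 61.7 to 74.9 CPM in vehicle and 117 to 140 in acetate, whereas the Y-linked Eif2s3y stood at 17.8 to 19.4 and 9.73 to 11.03. The groups did not overlap for either gene. Whether the groups differ in their share of female and male cells was not tested. In this design such a difference could not be told apart from acetate. Xist overlaps its antisense partner Tsix, so reads of the pair may not be told apart.

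After acetate, 3575 genes (23.7% of those tested) were raised and 4139 (27.5%) were lowered, 51.2% in all, at a Benjamini-Hochberg adjusted p under 0.05 in edgeR's quasi-likelihood test. The lowered genes spanned a much wider range of fold changes than the raised ones. More than 2-fold changes were found in 329 raised and 1789 lowered genes. Without vehicle 1, which is described above, the counts of raised and lowered genes were 3697 and 4500. Changes of more than 4-fold were found in 24 raised and 805 lowered genes, and those of more than 16-fold in 0 raised and 271 lowered. The median log2 fold over all tested genes was -0.03, with a 5th and 95th percentile of -2.11 and 0.76. Scaling the libraries on the summed counts of neuronal markers shifted the median of all genes by -0.90 log2 units, and scaling on the mean log2 level of those markers shifted it by -0.76. The calls were then 138 raised (0.915%) and 13244 lowered (87.9%) with the first and 248 (1.65%) and 12427 (82.4%) with the second, so directions given below are relative to the bulk of genes in these libraries. With the mean level of the 91 non-neuronal markers as a term in the fit, 1194 genes were raised (7.92%) and 966 lowered (6.41%). That level was itself 3.41 to 4.66 in vehicle and 2.28 to 2.37 in acetate, so the term largely follows the groups. Within groups it varied most through vehicle 1 and inhibitor vehicle 2. Calls lost or signs turned with the term therefore cannot separate acetate from the marker level. All acetate libraries lay above all vehicle libraries for 22.1% of genes and below them for 23.3%. Of the genes named below, Arc, Calb2, Cck, Eomes, Hspb1, Kcnf1, Olig1, Pvalb and Scg2 changed sign with that term, as did Acly, Acss2 and Spred3, which passed in neither fit.

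**Figure D1:**
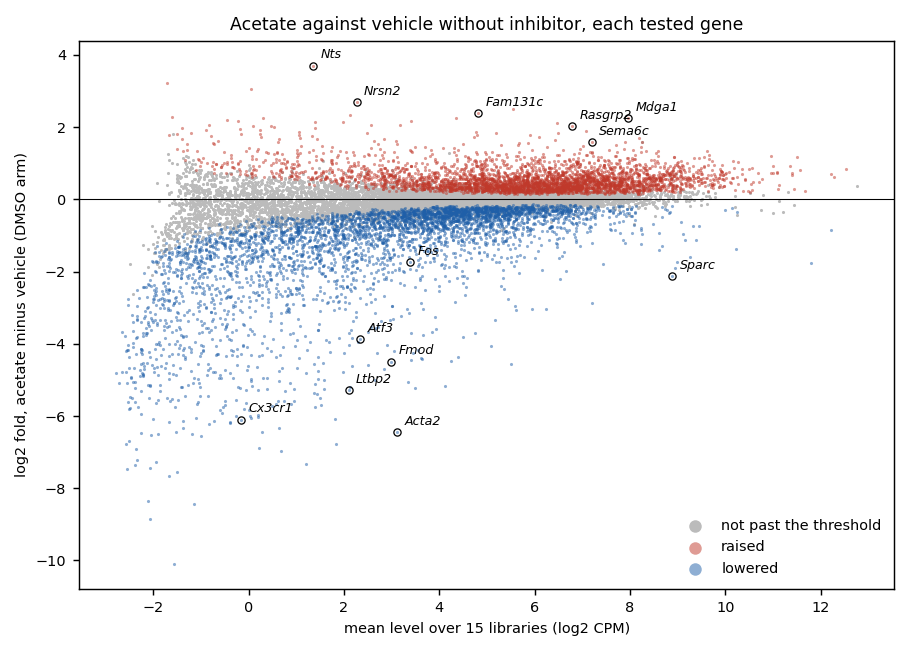
Each point is a tested gene, placed by its mean log2 CPM (horizontal) and its log2 fold of acetate over vehicle (vertical), and colours mark genes that passed the test. Raised genes lie mostly within 2-fold, while 805 lowered genes extend beyond 4-fold.

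Vehicle 1 lay between the groups for much of the lower tail. Among the 805 genes lowered more than 4-fold, it was more than 2-fold below every one of the other 3 vehicle libraries for 567 (70.4%). Over all tested genes this was so for 1018 (6.75%). Among the 329 genes raised more than 2-fold, vehicle 1 was above the other vehicle libraries by less than 2-fold for 181 and by more than 2-fold for 25. Fold changes of the genes the results turn on are therefore set out below with the value of every library. Some genes had a vehicle 1 level with the rest of its group, and others had a vehicle 1 that sat part of the way to acetate.

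The highest fold change of the 15075 tested genes belonged to a secreted peptide. Nts, on chromosome 10, encodes the precursor of neurotensin and neuromedin N, and its promoter is shown because the gene led the raised group and its promoter includes an AP-1 sequence, the kind bound by Fos and Jun proteins.
Nts, chr10:102490419-102490648, minus strand: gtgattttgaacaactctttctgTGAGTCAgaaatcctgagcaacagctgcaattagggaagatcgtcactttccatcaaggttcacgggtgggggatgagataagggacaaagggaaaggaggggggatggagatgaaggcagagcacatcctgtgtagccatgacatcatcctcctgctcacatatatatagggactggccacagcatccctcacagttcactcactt
Capitals mark TGANTCA, searched on both strands over 250 bases before the start, and the match begins 207 bases upstream. These letters occur in 6.75% of the 32851 promoters searched, which come from RefSeq (GRCm38.p6, the assembly that mm10 also names). The search did not cover every chromosome. Nts was read at 0.451, 0.196, 0.649 and 0.689 CPM in vehicle 1 to 4 and at 6.74, 7.36, 5.48 and 5.89 CPM in acetate 1 to 4. All acetate libraries lay far above all vehicle libraries, and vehicle 1 was level with its group. The log2 fold was 3.70 (SE 0.30, adjusted p = 3.1e-06), and 3.10 with the non-neuronal marker term.

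Nrsn2 and Fam131c showed the same arrangement of libraries. Nrsn2, a small membrane protein of neuronal vesicles, was at 1.505, 1.11, 1.53 and 1.53 CPM in vehicle and 9.40, 9.64, 9.79 and 7.79 CPM in acetate (log2 fold 2.69, SE 0.18). Fam131c was at 11.6, 8.93, 12.3 and 10.8 CPM in vehicle and 56.5, 65.4, 48.5 and 56.0 CPM in acetate (log2 fold 2.38, SE 0.12). Neither gene's groups came near each other. Sema6c, a transmembrane semaphorin of axon guidance, went from 78.8, 67.8, 79.6 and 86.8 CPM to 246, 260, 213 and 224 CPM (log2 fold 1.59, SE 0.09). Igsf8, an immunoglobulin-family partner of tetraspanins, went from 179, 156, 171 and 173 CPM to 428, 434, 350 and 384 CPM (log2 fold 1.23, SE 0.08). For these genes vehicle 1 lay inside or close to the range of the other vehicle libraries. Rasgrp2, an exchange factor that activates the GTPase Rap1, rose by 2.02 log2 units, with vehicle 1 at 73.0 CPM, the other vehicle libraries at 40.4 to 48.0 and acetate at 197 to 226.

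A second set of raised genes had a vehicle 1 between the groups. Mdga1, a membrane-anchored protein that binds neuroligins, was at 238 CPM in vehicle 1, at 47.6, 70.6 and 56.2 CPM in vehicle 2 to 4 and at 543, 533, 431 and 457 CPM in acetate. Rab26, a GTPase of secretory vesicles, was at 19.7 CPM in vehicle 1, at 4.30, 5.14 and 5.47 CPM in the others and at 38.5 to 44.9 CPM in acetate. Both groups of libraries were still apart for both genes. Their log2 folds were each 2.25 (SE 0.48 for Mdga1), and with the marker term they were 0.45 (adjusted p = 0.309) and 0.36 (adjusted p = 0.375). Leaving out vehicle 1 gave Mdga1 a log2 fold of 3.07. Fxyd7, a regulator of the sodium pump, had a like order, with vehicle 1 at 34.6 CPM, the other vehicle libraries at 10.2 to 13.4 and acetate at 89.5 to 114 (log2 fold 2.49). Klk8, the secreted protease neuropsin, stood at 6.58 CPM in vehicle 1, 3.36 to 3.85 in the others and 18.3 to 23.5 in acetate (log2 fold 2.18). Pygm, the muscle-type glycogen phosphorylase, went from 2.502 to 3.18 CPM to 8.88 to 15.4 CPM (log2 fold 2.05), with vehicle 1 inside its group.

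**Figure D2:**
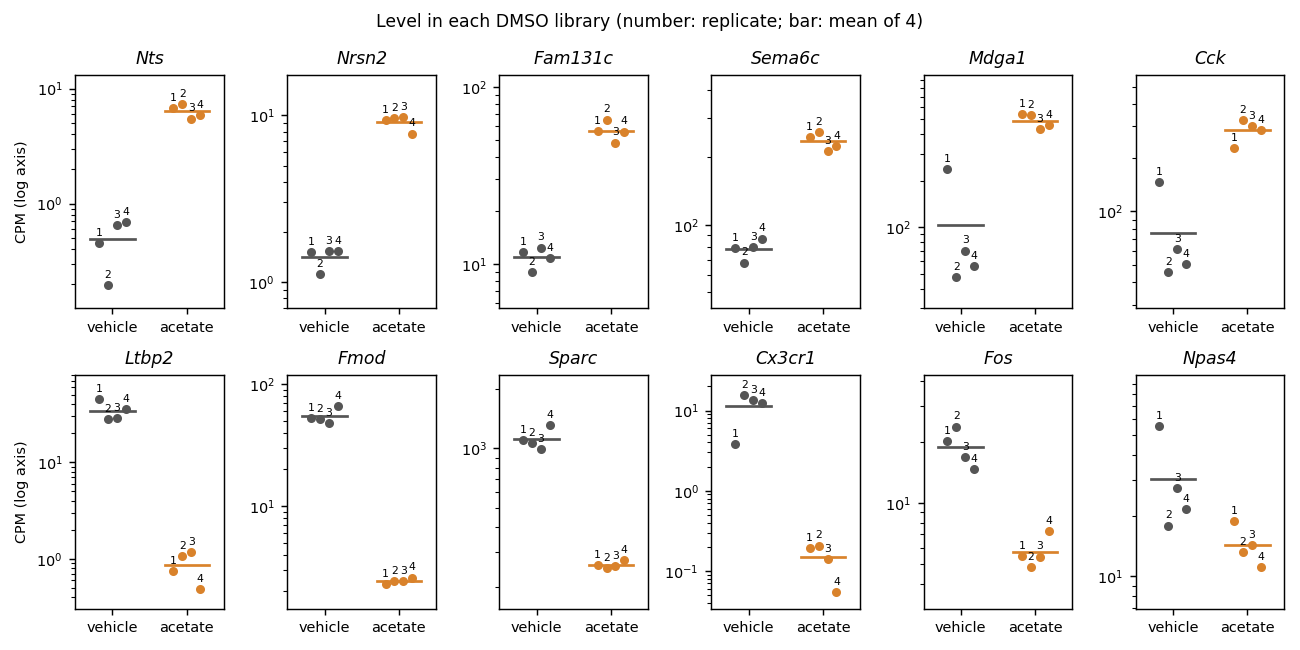
CPM on a log scale in each of the 8 libraries for named genes, with replicate numbers beside the points and a bar at each group's mean of 4. Nts, Nrsn2 and Fam131c are separated by group with vehicle 1 among the other vehicle libraries, while Mdga1 has a vehicle 1 at 238 CPM, between the others.

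Neuropeptide genes moved in both directions. Of 19 tested, 5 were raised (26.3%) and 7 lowered (36.8%), against 23.7% and 27.5% of all tested genes. Their median log2 fold was -0.63 against -0.03 over all genes. Without vehicle 1, 4 were raised and 9 lowered. Beside Nts, the raised members included Cck, the cholecystokinin precursor, and Cort, the cortistatin precursor. Cck was at 145 CPM in vehicle 1, at 45.8, 61.5 and 50.6 CPM in vehicle 2 to 4 and at 226, 324, 299 and 285 CPM in acetate. Its log2 fold was 1.91 (SE 0.47), and -0.14 (adjusted p = 0.606) with the marker term. Cort was at 7.30, 6.68, 7.60 and 7.43 CPM in vehicle and 13.04, 17.4, 13.2 and 14.1 CPM in acetate, so that all acetate libraries were higher and vehicle 1 was level with its group. Pdyn, the precursor of dynorphins, fell, from 25.4, 53.1, 43.1 and 46.6 CPM to 7.74, 7.71, 7.58 and 6.65 CPM (log2 fold -2.50, SE 0.34). Vehicle 1 was the lowest of the Pdyn vehicle values and still above every acetate value. Trh, the precursor of thyrotropin-releasing hormone, fell by 1.74 log2 units, with vehicle 1 at 0.79 CPM, the other vehicle libraries at 1.799 to 2.27 and acetate at 0.361 to 0.702. Calca, which encodes calcitonin and CGRP, fell by 1.46, with vehicle 1 at 2.60 CPM, the others at 5.01 to 5.18 and acetate at 1.17 to 1.92. Both genes had a vehicle 1 between the groups. With the marker term 6 neuropeptide genes were raised and 1 was lowered, with a median of 0.17, where 7.92% and 6.41% of all tested genes were.

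Of 15 proteins that load and process secretory granules, 5 were raised (33.3%) and 4 lowered (26.7%), shares near the 23.7% and 27.5% of all tested genes. Pcsk1n, an inhibitor of the prohormone convertase PC1, rose by 1.14 log2 units, from 350 to 534 CPM in vehicle to 925 to 1200 in acetate. Pam, which amidates the ends of many peptides, fell from 102, 104, 95.9 and 89.5 CPM to 53.6, 50.8, 60.7 and 55.8 CPM (log2 fold -0.83). The granin Scg2 fell by 0.92, with vehicle 1 at 81.9 CPM, the other vehicle libraries at 147 to 159.8 and acetate at 70.8 to 73.0, and with the marker term its log2 fold was 0.05. Pam's groups did not overlap and vehicle 1 was level with its group.

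Genes of synapses and of excitability leaned upward in these libraries, and their medians changed sign under the scaling on neuronal markers. Of 33 proteins of synaptic vesicles and release, 20 were raised (60.6%) and 3 lowered (9.09%), against 23.7% and 27.5% of all tested genes. Their median log2 fold was 0.53, or -0.20 when libraries were scaled on the mean log2 level of neuronal markers. Doc2a, a calcium sensor of spontaneous release, went from 27.1, 21.5, 22.8 and 19.4 CPM to 65.7, 66.1, 64.0 and 60.2 CPM (log2 fold 1.5, SE 0.15). Among synaptotagmins, the calcium sensors of vesicle fusion, 8 of 15 rose and 1 fell. Syt3 went from 92.5, 65.8, 85.3 and 83.5 CPM to 207, 215, 172 and 178 CPM (log2 fold 1.24), and Syt7 rose by 1.09. The groups of Doc2a and Syt3 were clearly apart. Sv2c, a vesicle protein of a few neuron types, went the other way with a log2 fold of -0.996. Of the 33 vesicle and release genes, 7 were raised and 2 lowered with the marker term, and 2 synaptotagmins were raised. That term left 7.92% of all tested genes raised and 6.41% lowered.

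Scaffolds of the postsynaptic density had 16 of 25 raised (64%) and 2 lowered (8%), and synaptic adhesion proteins 19 of 32 raised (59.4%) and 2 lowered (6.25%). Most of these calls were lost with the marker term, leaving 1 scaffold raised and 2 lowered, and 6 adhesion genes raised and 0 lowered. Calls were lost over all tested genes too, from 23.7% to 7.92% raised and from 27.5% to 6.41% lowered. Of ionotropic glutamate receptor genes, 14 of 29 rose and 2 fell, and of GABA-A receptor genes 5 of 12 rose and 0 fell, against 4 and 2 raised with the marker term. Cnih2, an auxiliary subunit of AMPA receptors, rose by 1.34 log2 units and Lrfn3, an adhesion protein, by 1.28. Gabrb2 and Gabra5, subunits of GABA-A receptors, rose by 0.53 and 0.52. Sodium, calcium and HCN channel genes had 18 of 26 raised and 1 lowered with a median of 0.52, and potassium channel genes 19 of 49 raised and 5 lowered with a median of 0.32. The marker term left 7 and 10 of them raised. Kcnn1, a small-conductance calcium-activated channel, rose by 1.36, the modifier subunit Kcnf1 fell by 1.28, and the leak channel Kcnk9 had a log2 fold of -1.397. Without vehicle 1 the adjusted p of Kcnk9 in edgeR's test was 0.0743.

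Structural and identity genes of neurons gave further detail. Tubulins, neurofilaments and other neuronal cytoskeleton genes had 24 of 31 raised and 0 lowered, or 5 raised with the marker term, with Tuba4a, Tubb3 and Tubb4a at log2 folds of 1.19, 1.19 and 1.17. Axon guidance genes had 20 of 44 raised (45.5%) and 10 lowered (22.7%), or 9 and 3 with that term. All tested genes had 23.7% and 27.5%, or 7.92% and 6.41% with the term. Among transcription factors of excitatory neurons 7 of 20 were raised and 2 lowered. Neurod6, of hippocampal pyramidal cells, rose by 1.11, with vehicle 1 at 321 CPM, the other vehicle libraries at 131 to 173 and acetate at 390 to 428. Prox1, a factor of dentate granule cells, fell by 0.83, with vehicle 1 at 7.71 CPM inside the acetate range of 6.29 to 8.38. Markers of interneurons had 4 of 19 raised (21.1%) and 3 lowered (15.8%), against 23.7% and 27.5% of all tested genes. Pvalb, the parvalbumin of fast-spiking interneurons, was at 2.11 CPM in vehicle 1, at 18.8, 13.9 and 14.7 CPM in vehicle 2 to 4 and at 1.38 to 2.43 CPM in acetate, so its groups overlapped through vehicle 1. Calb2, the calretinin gene, rose by 1.08, from 124 to 187 CPM in vehicle to 266 to 362 in acetate. Eomes, a factor of intermediate progenitors, fell by 1.85, with vehicle 1 at 1.66 CPM, the other vehicle libraries at 3.56 to 4.76 and acetate at 0.702 to 1.44.

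**Figure D3:**
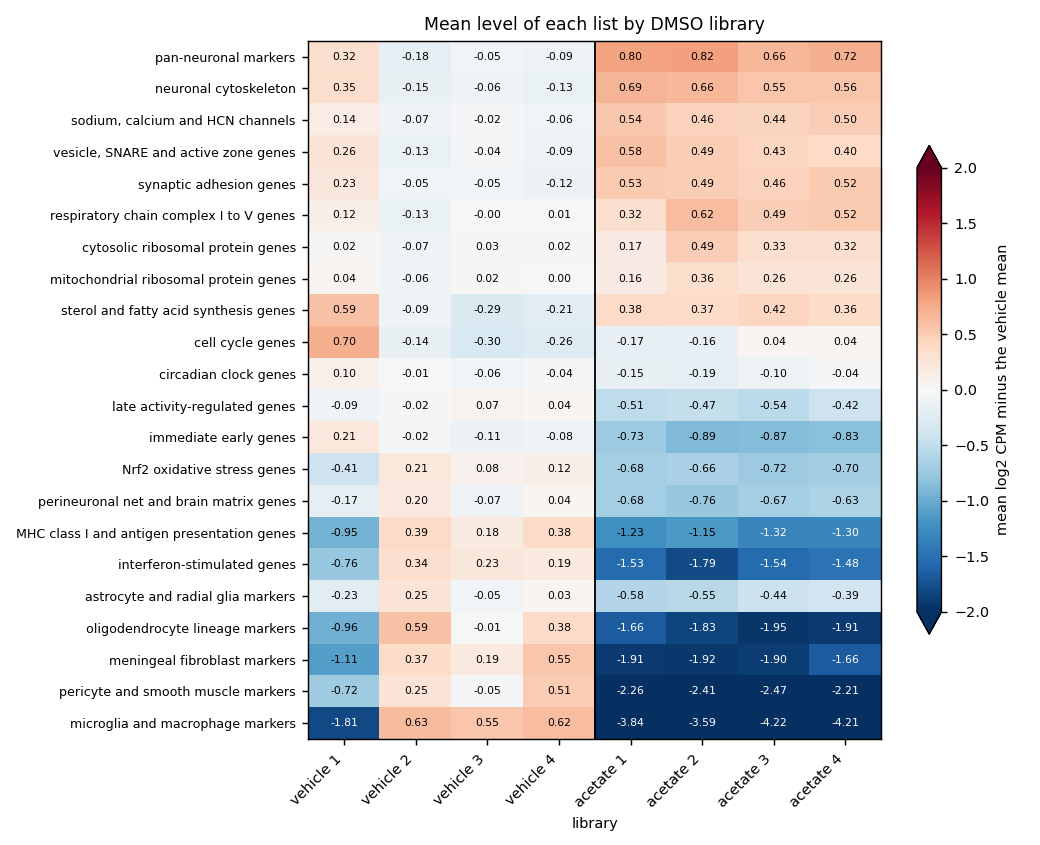
Heat map of the mean log2 CPM over the members of each gene list (lines) in each of the 8 libraries (columns), minus the mean of the 4 vehicle libraries, with red above and blue below it. Vehicle 1 departs from its group towards acetate for microglial, interferon and MHC class I genes and away from acetate for immediate early genes.

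Genes of mitochondrial energy production were raised together by modest amounts. Of 73 tested subunits of the respiratory chain and ATP synthase, 63 rose (86.3%) and 0 fell, against 23.7% and 27.5% of all tested genes. Their median log2 fold was 0.51 against -0.03 over all genes. It was -0.23 when the libraries were scaled on the mean log2 level of neuronal markers. By complex, 32 of 35 subunits of complex I rose (median 0.47), 1 of 4 of complex II (0.16), 8 of 9 of complex III (0.51), 10 of 10 of complex IV (0.66) and 12 of 15 of ATP synthase (0.49). Ndufv3, of complex I, went from 149, 126, 142 and 141 CPM to 240, 298, 253 and 249 CPM (log2 fold 0.90, SE 0.12), with no overlap. The mean log2 CPM over the 73 genes was 7.52, 7.28, 7.40 and 7.41 in vehicle and 7.72, 8.02, 7.89 and 7.92 in acetate, so acetate 1 was the nearest to vehicle. Leaving out vehicle 1 gave 65 raised and 0 lowered. With inhibitor present, where acetate was compared with its own vehicle, 1 of the 73 rose, against 14.5% of all genes there, and the median was 0.02. That comparison includes inhibitor vehicle 2, whose mean over the 73 genes was 7.81, against 7.41 and 7.34 in inhibitor vehicle 1 and 3 and 7.54 to 7.62 in acetate with inhibitor. Without it 20 of the 73 rose (27.4%, against 18.9% of all genes), with a median of 0.18, and the median difference between the responses was -0.34. With every library kept, the difference between those responses, tested in the same edgeR fit, passed for 0 of the 73 genes after adjustment over all genes and was under 0.05 unadjusted for 59, with a median difference of -0.47 log2 units, while over all tested genes 3 passed and 3113 of 15075 were under 0.05 unadjusted. DESeq2's Wald test called 42 of the 73 (and 1018 of all genes), all with the smaller response under inhibitor. In edgeR 16 were called without both vehicle 1 and inhibitor vehicle 2, 0 without inhibitor vehicle 2 alone and 42 without inhibitor vehicle 3. With the marker term, 3 of the 73 were raised by acetate without inhibitor, against 7.92% of all tested genes.

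Ribosomal protein genes were also raised. Of 81 cytosolic ribosomal proteins 65 rose and 0 fell, with a median of 0.38, or -0.38 on the mean log2 scaling to neuronal markers, and of 77 mitochondrial ribosomal proteins 48 rose and 0 fell, with a median of 0.29. Without inhibitor all tested genes had 23.7% raised and 27.5% lowered. The marker term left 2 cytosolic and 2 mitochondrial ribosomal protein genes raised, against 7.92% of all tested genes. With inhibitor the cytosolic set had 1 raised and 11 lowered (median -0.09) and the mitochondrial set 1 raised and 5 lowered (median -0.02), where all tested genes had 14.5% raised and 20.6% lowered. Without inhibitor vehicle 2 the counts were 2 and 8 (median 0.02) and 7 and 5 (median 0.07). For the difference between the responses, 0 of the 81 and 0 of the 77 passed in edgeR after adjustment, 70 and 45 were under 0.05 unadjusted, and DESeq2 called 54 and 24, all with the smaller response under inhibitor. In edgeR 16 and 8 were called without both vehicle 1 and inhibitor vehicle 2, 0 and 0 without inhibitor vehicle 2 alone, and 52 and 28 without inhibitor vehicle 3. Mrpl34, of the large mitochondrial subunit, went from 39.5, 36.0, 38.8 and 38.2 CPM to 65.6, 82.8, 72.7 and 70.3 CPM (log2 fold 0.93). The vehicle values of Mrpl34 were tight and all lay below acetate. Many ribosomal protein genes have near-identical processed copies. In the authors' counts, alignments that were not unique went to a summary line that names no gene. How many of them came from ribosomal protein genes is not given in the sources used here. Alignments that were not unique made up 26, 25.6, 25 and 25% of all counts in vehicle 1 to 4. In acetate 1 to 4 they made up 25.9, 27.7, 27 and 27.4%. In inhibitor vehicle 1 to 3 they made up 24.4, 29.3 and 24.6%. The cytosolic mean log2 CPM was 7.79, 7.69, 7.80 and 7.79 in vehicle and 7.93, 8.26, 8.10 and 8.09 in acetate. It was 7.82, 8.04 and 7.73 in inhibitor vehicle. Whether this share bears on the ribosomal or respiratory chain sets was not tested. Proteasome subunits had 19 of 31 raised and 0 lowered with a median of 0.22, and the marker term left 0 raised.

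**Figure D4:**
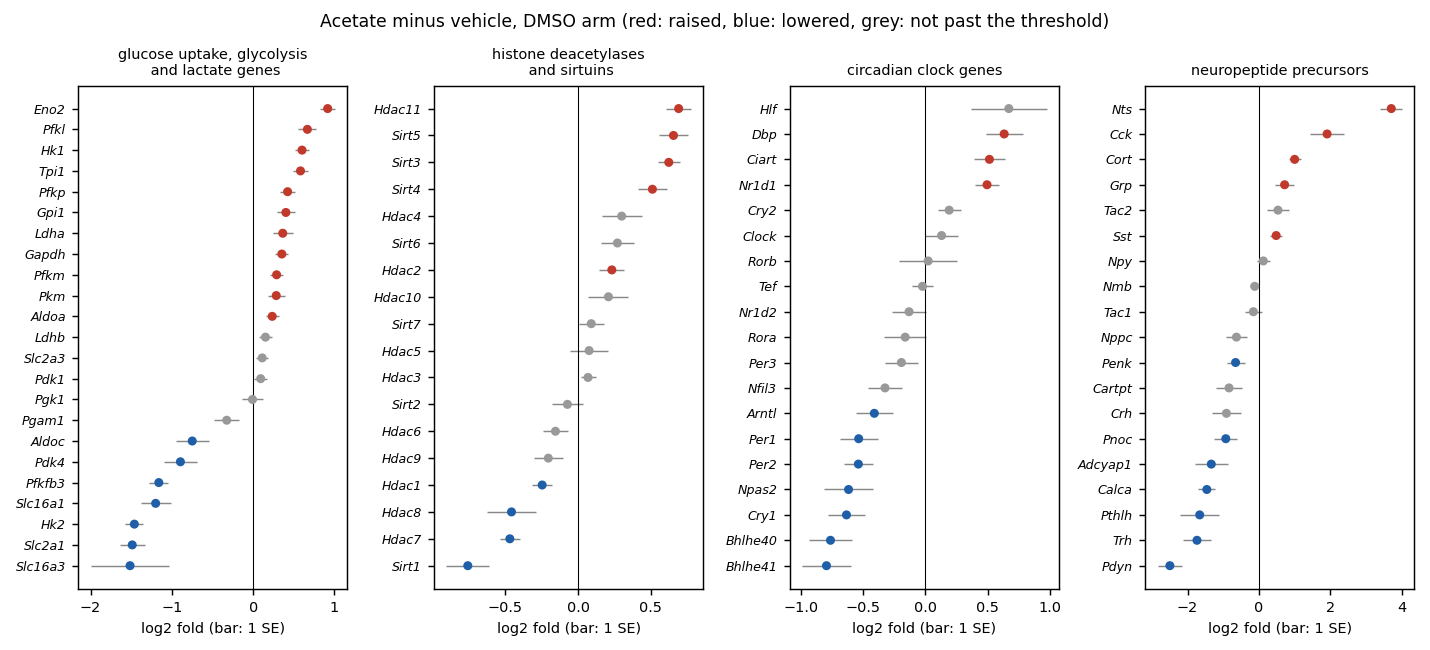
Log2 fold of acetate over vehicle for each tested member of 4 gene lists, with bars of 1 SE and red for raised, blue for lowered and grey for genes not past the test. Members of all 4 lists lie on both sides of 0, from Pdyn at -2.50 to Nts at 3.70 among neuropeptides.

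Of 23 genes of glucose uptake, glycolysis and lactate transport, 11 rose (47.8%) and 7 fell (30.4%), against 23.7% and 27.5% of all tested genes. The lowered share was thus near that of all genes. In the fit with the marker term 2 rose and 3 fell, against 7.92% and 6.41% of all genes. Hk2, the inducible hexokinase, was at 11.1, 13.9, 13.3 and 12.6 CPM in vehicle and 4.36, 4.18, 4.45 and 5.57 CPM in acetate (log2 fold -1.46, SE 0.11, adjusted p = 2.35e-06). Pfkfb3, which makes the fructose bisphosphate that drives phosphofructokinase, was at 62.6, 59.9, 48.4 and 51.6 CPM in vehicle and 25.6, 23.3, 26.3 and 24.3 CPM in acetate (log2 fold -1.16, SE 0.12). Every acetate library was below every vehicle library and vehicle 1 was level with its group. The log2 folds of Hk2 and Pfkfb3 with the marker term were -1.35 and -1.002. Slc2a1, the glucose transporter of glia and vessels, fell from 41.5, 54.7, 53.9 and 51.6 CPM to 17.0 to 19.7 CPM, and Slc16a1, a lactate transporter, fell by 1.20 log2 units. Among members that rose, Eno2, the neuronal enolase, went from 249, 214, 254 and 242 CPM to 493, 481, 444 and 394 CPM (log2 fold 0.92), and Hk1, the housekeeping hexokinase, from 576, 449, 481 and 490 CPM to 846, 778, 694 and 709 CPM (log2 fold 0.60). For Eno2 and Hk1 vehicle and acetate did not overlap, and on the summed neuronal scaling Hk1 had a log2 fold of -0.29.

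In the citric acid cycle and pyruvate entry, 12 of 28 genes rose (42.9%) and 3 fell (10.7%), against 23.7% and 27.5% of all tested genes. Mpc2, a subunit of the mitochondrial pyruvate carrier, rose by 0.58 and Got2, the mitochondrial aspartate aminotransferase, by 0.52. Idh2, the NADP-linked isocitrate dehydrogenase of mitochondria, fell from 92.5, 89.8, 84.9 and 82.9 CPM to 56.5, 53.4, 55.1 and 52.5 CPM (log2 fold -0.69, SE 0.14), and Suclg2, the GTP-forming subunit of succinyl-CoA ligase, fell by 0.72. The Idh2 groups were apart by more than their own ranges. Fatty acid oxidation genes had 6 of 22 raised and 6 lowered (27.3% each), near the 23.7% and 27.5% of all tested genes. Cpt1a, which loads long-chain fatty acids for import, fell from 56.5, 47.8, 41.0 and 39.8 CPM to 25.1, 23.3, 31.4 and 29.5 CPM (log2 fold -0.76).

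The enzymes that take up acetate itself did not pass the test. Acss2 was at 35.7, 21.5, 22.9 and 23.04 CPM in vehicle and 30.6, 30.6, 31.6 and 29.5 CPM in acetate (log2 fold 0.25, SE 0.15, adjusted p = 0.177), with vehicle 1 above every acetate library. Leaving out vehicle 1 gave 0.43 with an adjusted p of 0.00425. Acss1 had a log2 fold of -0.11 (adjusted p = 0.613), with overlapping groups. Of 19 genes that make, move or use acetyl-CoA, 8 rose (42.1%) and 2 fell (10.5%), against 23.7% and 27.5% of all tested genes. Slc25a1, the carrier that exports citrate from mitochondria, went from 322, 209, 231 and 245 CPM to 575, 653, 526 and 565 CPM (log2 fold 1.20), and the acyl-CoA thioesterase Acot7 rose by 1.13. Acly, which cleaves that citrate to acetyl-CoA, had a log2 fold of 0.51 (adjusted p = 0.0614), with vehicle 1 at 244 CPM above the acetate range of 211 to 222, and of 0.82 (adjusted p = 0.000328) without vehicle 1.

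Genes of sterol and fatty acid synthesis rose in 13 of 34 cases (38.2%) and fell in 2 (5.88%), against 23.7% and 27.5% of all tested genes. The median was 0.40, and vehicle 1 was the highest library of all for the set. The mean log2 CPM over its members was 7.07 in vehicle 1, 6.19 to 6.38 in the other vehicle libraries and 6.83 to 6.90 in acetate. Without vehicle 1, 24 rose and 2 fell, and the median was 0.59. The marker term left 0 raised and 1 lowered, against 7.92% and 6.41% of all tested genes. Mvd, a decarboxylase of the mevalonate pathway, was at 406 CPM in vehicle 1, at 159, 166 and 163 CPM in vehicle 2 to 4 and at 532 to 616 CPM in acetate.

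Of 15 histone acetyltransferases, 3 were raised (20%) and 5 lowered (33.3%), near the 23.7% and 27.5% of all tested genes. Ncoa1 and Kat2a rose by 0.54 and 0.36, and Kat2b fell by 0.66. Deacetylases and sirtuins had 5 of 18 raised and 4 lowered, also near those shares. The sirtuins of mitochondria rose. Sirt3, the main mitochondrial deacetylase, was at 47.7, 38.5, 48.4 and 52.0 CPM in vehicle and 71.2, 76.2, 69.5 and 70.3 CPM in acetate (log2 fold 0.62, SE 0.08, adjusted p = 3.8e-05). Sirt5, which removes succinyl groups, was at 8.28, 7.43, 8.02 and 8.19 CPM in vehicle and 12.8, 11.8, 12.03 and 13.6 CPM in acetate (log2 fold 0.65), and Sirt4 rose by 0.51. For Sirt3 and Sirt5 all acetate libraries were above all vehicle libraries, and on the summed neuronal scaling the log2 folds of Sirt3, Sirt4 and Sirt5 were -0.27, -0.38 and -0.24. Sirt1, the nuclear sirtuin, fell from 4.21, 6.06, 6.02 and 5.89 CPM to 3.61, 3.08, 2.76 and 3.68 CPM (log2 fold -0.76, SE 0.15), with vehicle 1 nearest to acetate. Hdac11, the class IV deacetylase, rose from 104, 89.0, 99.1 and 101 CPM to 173, 167, 148 and 146 CPM (log2 fold 0.69).

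In the lists of immediate early and later activity-regulated genes, more members were lowered than raised. Of 25 immediate early genes 17 fell (68%) and 1 rose (4%), with a median of -0.79, against 27.5% and 23.7% of all tested genes. The members with the smallest p were Cyr61, Btg2, Atf3, Klf4, Ier5 and Fos. Which cells the reads of these genes came from was not tested. The mean log2 CPM over the list was 4.44, 4.22, 4.13 and 4.16 in vehicle and 3.51, 3.35, 3.36 and 3.41 in acetate. Without vehicle 1, 13 fell and 4 rose, with a median of -0.64. Vehicle 1 was the highest vehicle library here, on the side away from acetate, unlike its place for glial markers. In the fit with the marker term 7 fell and 0 rose, against 6.41% and 7.92% of all tested genes. With inhibitor present 16 fell and 1 rose with a median of -0.71, against 20.6% and 14.5% of all tested genes. Fos was at 20.2, 23.8, 16.8 and 14.7 CPM in vehicle and 5.46, 4.80, 5.43 and 7.24 CPM in acetate (log2 fold -1.73, SE 0.27, adjusted p = 0.000179). Arc, a synaptic capsid-like protein, was at 13.1, 11.6, 14.5 and 13.3 CPM in vehicle and 7.57, 6.15, 5.67 and 5.78 CPM in acetate (log2 fold -1.06). Neither Fos nor Arc overlapped between groups, although with the marker term the log2 fold of Arc was 0.11 (adjusted p = 0.861). Nr4a3, an orphan nuclear receptor, was the member that rose, with 174 CPM in vehicle 1, 76.9, 83.1 and 75.9 CPM in vehicle 2 to 4 and 174 to 181 CPM in acetate. Its vehicle 1 value was thus level with acetate. Of 25 genes that follow activity later, 12 fell (48%) and 2 rose (8%). Bdnf, the neurotrophin, went from 61.6, 50.03, 51.8 and 47.7 CPM to 29.6, 36.2, 33.9 and 38.9 CPM (log2 fold -0.61), and Nptx2, a secreted pentraxin of excitatory synapses, from 25.7, 37.7, 51.3 and 48.8 CPM to 8.49, 8.61, 9.37 and 8.60 CPM (log2 fold -2.22).

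Genes that relay calcium and CREB signals had 19 of 30 raised and 5 lowered with a median of 0.48, and metabotropic glutamate receptors 4 of 7 raised and 0 lowered with a median of 0.46. Nrgn, a calmodulin-binding protein of dendritic spines, rose by 1.24 log2 units, and the calcium-stimulated adenylyl cyclase Adcy8 fell by 1.74. Feedback genes of the Ras and MAP kinase pathway had 7 of 21 lowered (33.3%) and 2 raised (9.52%) with a median of -0.40. Of all tested genes 27.5% were lowered and 23.7% raised. Genes of perineuronal nets and brain matrix had 9 of 20 lowered and 1 raised with a median of -0.36. In that list the tenascins Tnr and Tnc fell by 0.88 and 0.89, while Hapln4, a link protein of perineuronal nets, rose by 0.80. Subunits of the vacuolar proton pump had 10 of 21 raised and 3 lowered, and genes of immature neurons 9 of 15 raised and 2 lowered. Genes of AMPK and mTOR signalling had 3 of 20 raised (15%) and 4 lowered (20%), both below the shares of all tested genes.

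The promoters of a pair of lowered activity-regulated genes are shown because they carry the full cyclic AMP response element, the sequence bound by the activity-regulated factor CREB. Btg2 restrains cell growth and Dusp1 is a phosphatase that turns off MAP kinases.
Btg2, chr1:134079156-134079335, minus strand: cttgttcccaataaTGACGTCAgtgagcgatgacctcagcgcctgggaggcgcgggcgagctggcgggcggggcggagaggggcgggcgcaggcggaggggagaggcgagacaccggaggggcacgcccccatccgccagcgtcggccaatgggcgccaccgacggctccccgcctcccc
Dusp1, chr17:26508473-26508652, minus strand: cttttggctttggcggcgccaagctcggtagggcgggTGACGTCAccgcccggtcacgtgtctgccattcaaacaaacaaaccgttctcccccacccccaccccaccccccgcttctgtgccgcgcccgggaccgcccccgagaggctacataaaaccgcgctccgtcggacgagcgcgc
Capitals mark TGACGTCA only, which reads the same on both strands and starts 166 and 143 bases upstream in RefSeq's GRCm38.p6 models. The letters occur in 1.55% of the 32851 promoters searched, or 1.77% of their genes. Among the 19 immediate early genes with a searched promoter they occur in 2, Maff and Btg2. Btg2 was at 23.5, 29.6, 26.7 and 28.3 CPM in vehicle and 15.7, 12.8, 15.2 and 15.5 CPM in acetate (log2 fold -0.87, SE 0.11). Dusp1 was at 6.25, 11.1, 9.36 and 11.1 CPM in vehicle and 3.495, 3.04, 2.86 and 3.41 CPM in acetate (log2 fold -1.56, SE 0.24). Both genes were lower in every acetate library, and vehicle 1 was the lowest of each vehicle group. AP-1 letters (TGANTCA) occur in 0 of these 19 immediate early genes and in 7.82% of all genes with a searched promoter.

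Of 19 clock genes tested, 3 rose (15.8%) and 7 fell (36.8%), with a median of -0.16, where 23.7% and 27.5% of all genes did. The promoters of 4 that changed are shown because they hold the perfect E-box CACGTG, to which the CLOCK and BMAL1 activators bind.
Ciart, chr3:95882229-95882358, minus strand: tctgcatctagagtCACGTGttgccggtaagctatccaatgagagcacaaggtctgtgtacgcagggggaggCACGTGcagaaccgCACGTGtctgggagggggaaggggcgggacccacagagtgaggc
Per1, chr11:69098769-69098948, plus strand: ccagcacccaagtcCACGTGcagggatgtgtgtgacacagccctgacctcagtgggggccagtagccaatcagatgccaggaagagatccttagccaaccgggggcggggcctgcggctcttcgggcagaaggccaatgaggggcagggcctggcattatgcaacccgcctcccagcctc
Cry1, chr10:85185055-85185184, minus strand: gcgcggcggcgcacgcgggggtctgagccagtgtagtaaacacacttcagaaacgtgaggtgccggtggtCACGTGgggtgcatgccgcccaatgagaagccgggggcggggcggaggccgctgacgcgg
Bhlhe41, chr6:145865421-145865600, minus strand: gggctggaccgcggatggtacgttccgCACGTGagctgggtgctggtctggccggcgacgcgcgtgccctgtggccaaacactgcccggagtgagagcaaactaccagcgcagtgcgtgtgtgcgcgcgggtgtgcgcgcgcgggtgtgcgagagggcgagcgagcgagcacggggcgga
Capitals mark CACGTG, which reads the same on both strands. It starts 116, 58 and 44 bases upstream in Ciart, 166 in 1 of the 2 promoters of Per1, 60 in Cry1 and 153 in Bhlhe41 (RefSeq, GRCm38.p6). It occurs in 6.02% of the 32851 promoters searched, or 6.86% of their genes. Of the 17 clock genes with a searched promoter 5 have it, of which 1 rose and 3 fell. Ciart, a repressor of the CLOCK and BMAL1 pair, was at 9.78, 7.01, 7.32 and 8.77 CPM in vehicle and 11.9, 12.2, 11.1 and 11.6 CPM in acetate (log2 fold 0.51, SE 0.13). Cry1, a core repressor, was at 11.8, 9.78, 11.8 and 10.8 CPM in vehicle and 7.29, 6.91, 7.07 and 7.14 CPM in acetate (log2 fold -0.63, SE 0.15). Bhlhe41 (Dec2), which competes for the E-box, was at 13.6, 20.3, 15.9 and 15.8 CPM in vehicle and 8.60, 8.78, 9.51 and 11.2 CPM in acetate (log2 fold -0.79). The groups of Ciart, Cry1 and Bhlhe41 did not overlap, and genes with the same E-box letters thus lay on both sides. Per1 fell by 0.53, from 83.5 to 104 CPM to 55.1 to 71.6 CPM. On the summed neuronal scaling Ciart, Dbp and Nr1d1 had log2 folds of -0.36, -0.29 and -0.40. Relative to the bulk of genes, the output gene Dbp rose from 22.1, 31.5, 33.0 and 40.3 CPM to 43.3, 49.9, 55.1 and 48.7 CPM (log2 fold 0.63), and the repressor gene Nr1d1 rose from 48.0, 39.0, 46.2 and 49.6 CPM to 65.3, 64.7, 59.4 and 68.1 CPM (log2 fold 0.50). With inhibitor the log2 folds of Dbp and Nr1d1 were each 0.02, and the adjusted p for the difference between the responses was 0.128 for Dbp and 0.0889 for Nr1d1 in edgeR.

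Genes of the oxidative stress response were lowered in 15 of 24 cases and raised in 1, with a median of -0.67. The promoter of Srxn1, which restores oxidised peroxiredoxins, is shown for its antioxidant element, the sequence bound by Nrf2.
Srxn1, chr2:152105394-152105523, plus strand: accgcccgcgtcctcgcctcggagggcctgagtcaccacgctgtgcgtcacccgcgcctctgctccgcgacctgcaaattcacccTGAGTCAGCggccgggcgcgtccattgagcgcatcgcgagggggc
Capitals mark TGANTCAGC, searched on both strands, which starts 45 bases upstream and contains the AP-1 letters TGANTCA. It is found in 1.02% of the 32851 promoters searched, or 1.17% of their genes. Of the 20 Nrf2 targets that matched 3 have it, Srxn1, Osgin1 and Prdx1. Srxn1 was at 89.0 CPM in vehicle 1, at 171, 166 and 148 CPM in vehicle 2 to 4 and at 59.8, 61.0, 64.0 and 58.6 CPM in acetate (log2 fold -1.24). Vehicle 1 again lay between the groups. Over all 24 genes the mean log2 CPM was 6.22 in vehicle 1, 6.71 to 6.84 in the other vehicle libraries and 5.91 to 5.98 in acetate. Under the marker term 2 rose and 3 fell with a median of 0.02, against 7.92% and 6.41% of all tested genes. Txn1, thioredoxin, was the member that rose (log2 fold 0.58). Targets of Atf4 had 9 of 28 lowered (32.1%) and 4 raised (14.3%), against 27.5% and 23.7% of all tested genes. Trib3, a pseudokinase of that response, fell from 5.04, 6.58, 7.00 and 9.03 CPM to 2.496, 2.11, 2.76 and 2.27 CPM, without overlap. Chaperones of the endoplasmic reticulum had 4 of 20 raised (20%) and 6 lowered (30%), near the shares of all tested genes. Heat shock genes had 10 of 20 raised (50%) and 4 lowered (20%). Hspb1, a small heat shock protein, was at 2.67 CPM in vehicle 1, 19.2 to 22.1 CPM in the other vehicle libraries and 0.888 to 1.21 CPM in acetate.

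Of 20 genes of apoptosis, 9 rose (45%) and 8 fell (40%), with a median near 0. Of all tested genes 23.7% rose and 27.5% fell. The survival genes Bcl2 and Mcl1 fell. Bcl2 was at 22.7, 31.0, 25.0 and 29.6 CPM in vehicle and 13.01, 11.8, 13.9 and 13.2 CPM in acetate (log2 fold -1.06, SE 0.12), and Mcl1 at 183, 167, 157 and 154 CPM and 104, 115, 118 and 121 CPM (log2 fold -0.53, SE 0.06). Neither gene overlapped between groups. Among genes that favour death, Bad rose by 0.60, while Bcl2l11 (Bim) fell by 0.92 and Casp8, the caspase of death receptors, by 2.42. Casp8 stood at 1.58 CPM in vehicle 1, 2.36 to 2.60 CPM in the other vehicle libraries and 0.277 to 0.595 CPM in acetate.

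Among receptors of growth factors, 4 of 18 rose (22.2%) and 5 fell (27.8%), near the 23.7% and 27.5% of all tested genes. Gfra2, the receptor of neurturin, was at 15.2, 14.5, 14.7 and 14.5 CPM in vehicle and 32.4, 29.2, 30.1 and 31.0 CPM in acetate (log2 fold 1.06, SE 0.12). Ntrk2, the receptor of BDNF, had a mean of 457 ± 61.2 CPM (SD, n = 4) in vehicle and 235 ± 12.8 CPM (SD, n = 4) in acetate (log2 fold -0.96). Both genes were separated by group without exception. Astrocytes also express Ntrk2, and the values of their summed markers are given above.

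The lowest folds belonged to genes of macrophages and microglia and to genes of matrix and contractile cells. Mpeg1, Lyz2, Stab1, Tyrobp, Trem2, Csf1r and Gpnmb were of the first kind, and microglial genes are given further below. Acta2, Ltbp2, Tagln, Thbs1 and Fmod were of the second kind. A few genes of matrix had a vehicle 1 that was level with its group. Ltbp2, a matrix protein of the latent TGF-beta binding family, was at 44.95, 28.1, 29.0 and 35.7 CPM in vehicle and 0.749, 1.07, 1.17 and 0.486 CPM in acetate (log2 fold -5.29, SE 0.64, adjusted p = 3.67e-05). Fmod, a collagen-binding proteoglycan, was at 52.9, 51.7, 47.7 and 66.4 CPM in vehicle and 2.30, 2.42, 2.44 and 2.60 CPM in acetate (log2 fold -4.49). Cyr61, a matricellular protein induced by YAP, was at 165, 124, 87.6 and 114 CPM in vehicle and 9.93, 8.85, 8.76 and 10.5 CPM in acetate (log2 fold -3.69). It was also counted among the immediate early genes above. For Ltbp2 and Cyr61 vehicle 1 was the highest library, although it was the lowest vehicle library for the summed meningeal and pericyte markers. With the marker term the log2 folds of Ltbp2 and Fmod were -3.89 and -2.54. Sparc, a matricellular protein of glia and vessels, was at 1107, 1060, 988.8 and 1309 CPM in vehicle and 257, 248, 254 and 272 CPM in acetate (log2 fold -2.12). The adaptor of cell junctions Ajuba fell by 2.07. Acta2, smooth muscle actin, was at 73.1, 124, 112 and 204 CPM in vehicle and 1.05, 1.35, 1.73 and 1.95 CPM in acetate. Thbs1, a matrix protein released by astrocytes and platelets, was at 30.7, 60.5, 31.5 and 53.2 CPM and 1.69, 1.11, 1.36 and 1.297 CPM. The vehicle values of Acta2 and Thbs1 were spread, and all exceeded acetate.

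Most genes of the immune lists were lowered, and vehicle 1 was low in each list. Microglial genes had 18 of 18 lowered (median -4.50), interferon-stimulated genes 17 of 20 lowered and 0 raised (median -1.75), and MHC class I genes 11 of 14 lowered and 0 raised (median -1.51). Without vehicle 1 the counts lowered were 18, 17 and 13 and the medians -4.84, -1.99 and -1.81. In the fit with the marker term 0 interferon-stimulated genes were lowered and 1 raised (median -0.17), and 0 MHC class I genes were lowered and 4 raised (median 0.41). Cx3cr1, the fractalkine receptor of microglia, was at 3.84 CPM in vehicle 1, at 15.5, 13.5 and 12.3 CPM in vehicle 2 to 4 and at 0.0541 to 0.207 CPM in acetate. The lowest of these values is near the worth of 1 count in the shallowest library. The mean log2 CPM of interferon-stimulated genes was 1.49 in vehicle 1, 2.45 to 2.60 in the other vehicle libraries and 0.46 to 0.77 in acetate. The microglial markers lay in the same order, at 2.47, 4.84 to 4.92 and 0.06 to 0.70. Oligodendrocyte lineage genes had 13 of 15 lowered and 0 raised. Their summed level was nevertheless 342.2 to 892 CPM in vehicle and 715.6 to 999.4 in acetate, and the abundant Olig1 was not among the lowered genes. Olig1, a factor of oligodendrocyte precursors, was at 695 CPM in vehicle 1, at 72.7, 71.4 and 66.2 CPM in vehicle 2 to 4 and at 535, 586, 839 and 777 CPM in acetate. Its log2 fold was 1.595 (adjusted p = 0.139), and 3.27 (adjusted p = 0.00283) without vehicle 1, so vehicle 1 alone resembled acetate for this gene. Cell cycle genes had 7 of 24 lowered (29.2%) and 1 raised (4.17%), against 27.5% and 23.7% of all tested genes. Without vehicle 1 they had 5 lowered and 7 raised, with a median of 0.26. With the marker term they had 17 lowered and 0 raised, with a median of -0.88, against 6.41% and 7.92% of all tested genes.

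**Figure D5:**
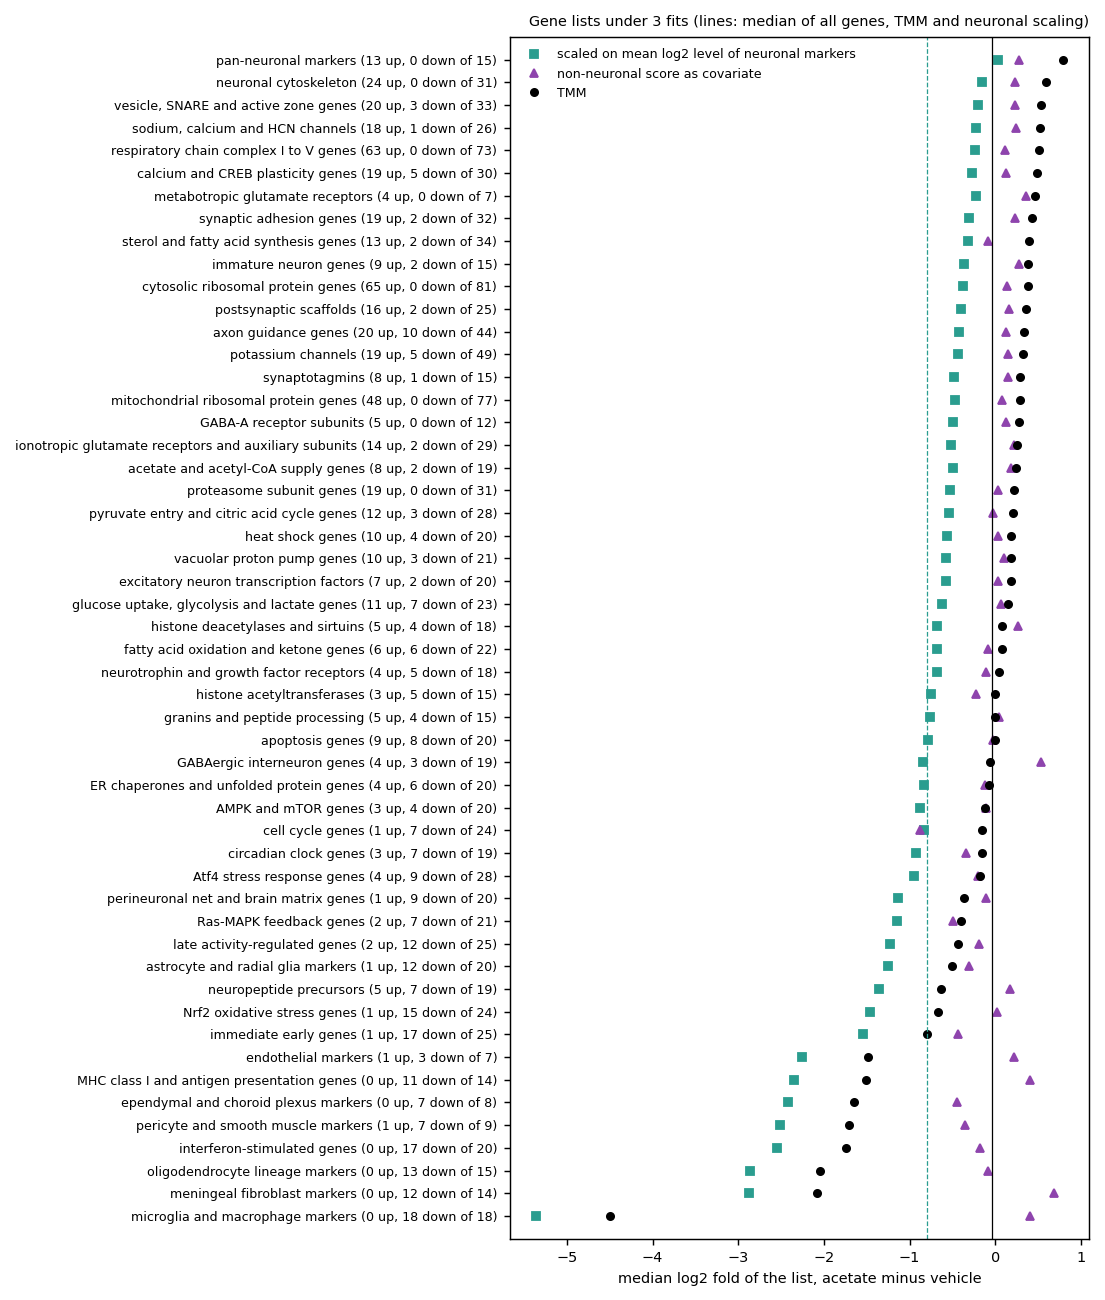
Median log2 fold of each gene list for acetate against vehicle under 3 fits: library scaling by TMM (circles), scaling on the mean log2 level of neuronal markers (squares) and the non-neuronal marker level as a term (triangles). With TMM the microglial markers have the lowest median at -4.50 and the pan-neuronal markers the highest at 0.79, and the squares lie to the left of the circles for every list.

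With inhibitor present, acetate against its own vehicle raised 2180 genes (14.5%) and lowered 3103 (20.6%). Without inhibitor vehicle 2, whose low non-neuronal marker level is given above, the counts were 2894 (18.9%) and 3616 (23.7%). Without inhibitor vehicle 1 or 3, where it is 1 of a pair, they were 1245 and 1877 or 1348 and 1934. The difference between the responses was tested for every gene in the same fit, and 3 of 15075 (0.0199%) passed in edgeR, with 3113 under 0.05 unadjusted. This count depended on the tool and on single libraries. It was 65 without vehicle 1, 19 without inhibitor vehicle 2, 654 without both, 1005 without inhibitor vehicle 3, and 1018 in DESeq2. Rasl11b, a small GTPase, fell without inhibitor from 28.44, 25.22, 29.06 and 29.17 CPM to 17.03, 17.90, 15.26 and 13.57 CPM, and with inhibitor it was at 23.81, 29.30 and 25.34 CPM in vehicle and 31.99, 34.80, 32.41 and 33.39 CPM in acetate. The difference was 1.15 log2 units (SE 0.14, adjusted p = 0.00345). Sel1l3 fell without inhibitor from 44.47, 48.95, 50.19 and 46.81 CPM to 26.60, 25.40, 28.66 and 23.95 CPM, and with inhibitor it was at 29.42, 28.48 and 32.45 CPM in vehicle and 29.64, 31.26, 33.80 and 33.66 CPM in acetate. Its difference was 0.95 (SE 0.11). The inhibitor vehicle libraries of Sel1l3 were thus already near the acetate level seen without inhibitor. For both genes vehicle 1 was level with its group. Spred3, a relative of the Sprouty inhibitors of Ras signalling, was at 101.5 to 124.6 CPM in vehicle and 96.83 to 116.6 CPM in acetate without inhibitor, where it did not pass the test. With inhibitor it was at 93.06 to 134.4 CPM in vehicle and 38.66 to 49.09 CPM in acetate, a difference of -1.19 (SE 0.17). Over the 15 fits that each left out 1 library, the adjusted p of the difference in edgeR's test was 0.00148 to 0.017 for Rasl11b, 0.00165 to 0.017 for Sel1l3 and 0.00231 to 0.0619 for Spred3, whose call was thus lost in some.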

How the data were processed

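Total RNA (QIAzol, RNeasy) was turned into 15 strand-specific sequencing libraries, per the labels' protocols. The deposited values are whole-number counts per gene made by the authors, not normalized. The submitters' processing notes name STAR 2.5.2a, HTSeq 0.6.1p1, DESeq2 and mm10. The annotation, the counting mode and whether strand was used were not given in the sources used here; overlapping genes and near-identical copies are therefore uncertain. The 5 summary lines that name no gene were left out. They made up 38.9% to 39.7% of the counts in vehicle and 39.3% to 43.1% in acetate.

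The tests used edgeR 4.0.16 in R 4.3.3, with the default expression filter, TMM scaling, and a quasi-likelihood fit of 15 libraries with a mean per group. Adjusted p-values are Benjamini-Hochberg over 15075 genes, called under 0.05, and each SE was obtained as log2 fold over the root of F. CPM values carry the TMM scaling, with a prior count of 2 on the log2 scale. Alternatives used DESeq2 1.42.0 and limma 3.58.1. Coordinates and promoters are from RefSeq, with 14516 symbols matched directly and 519 by synonym.

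The comparison, its gene lists and rules were chosen with earlier results of these data known. Genes were named by fold among non-overlapping genes, by smallest p within and outside each list, and by a fixed set. Olig1, Per1, Xist and Eif2s3y were chosen after their values were seen.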

Additional observations from a re-analysis of the deposited data

Results flagged for a closer look

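Responses to acetate with and without inhibitor differed past the test for 3 genes, as inhibitor minus DMSO on the log2 scale: Rasl11b by 1.15, Sel1l3 by 0.95 and Spred3 by -1.19.

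List and group combinations share libraries and some members, so a chance rate of about 1 in 20 is no yardstick here. A single library stood far from the other 3 of its group, by a list's mean log2 CPM, in 12 of the 106 combinations examined. Vehicle 1 was the distant library for 7 of them: microglial markers at 2.47, cell cycle genes at 5.39, postsynaptic scaffolds at 6.47, potassium channels at 4.26, citric acid cycle genes at 6.96, interferon-stimulated genes at 1.49 and MHC class I genes at 3.34. Vehicle 2 stood apart for synaptotagmins at 4.38, GABA-A receptor subunits at 4.10 and cytosolic ribosomal proteins at 7.69. Acetate 4 stood apart for meningeal fibroblast markers at 2.39 and synaptotagmins at 4.68.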

How the results depend on the processing

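The results below compare each value above with the same value under another setting. Counts of genes raised and lowered stayed within 1.5 times of 3575 and 4139 with DESeq2 size factors, upper-quartile scaling, DESeq2's Wald test, limma-voom, no filter or a stricter filter on low counts, and with the 8 DMSO libraries alone. Leaving out each of the 15 libraries in turn, the 7 with inhibitor in an alternative chosen after seeing the data, gave 3010 to 3855 raised, 3547 to 4500 lowered and 2 to 1005 genes that differed between the responses with and without inhibitor. The last count was 65 without vehicle 1, 19 without inhibitor vehicle 2 and 1005 without inhibitor vehicle 3. It was 3 with every library, 654 without both vehicle 1 and inhibitor vehicle 2, 881 with the non-neuronal marker term and 1018 in DESeq2; the cause was not tested. With the marker term the counts of raised and lowered genes were 1194 and 966. Scaling on neuronal markers gave 138 and 13244 on their summed counts and, in an alternative chosen after seeing the data, 248 and 12427 on their mean log2 level, since each lowers all folds by its shift.

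Scaling on neuronal markers fixes the level of those markers by design, so their own median is no check on it. Such scaling turned the sign of 20 of 108 named genes on summed counts and 18 on the mean log2 level. Of these, Acly passed the test in neither the fit as reported nor the scaled ones and had log2 folds of -0.32 and -0.19. On summed counts the log2 folds were Acss2 -0.61, Bad -0.30, Ciart -0.36, Dbp -0.29, Gabra5 -0.36, Gabrb2 -0.39, Got2 -0.37, Hdac11 -0.21, Hk1 -0.29, Kat2a -0.54, Mpc2 -0.32, Ncoa1 -0.36, Nr1d1 -0.40, Sirt3 -0.27, Sirt4 -0.38, Sirt5 -0.24, Txn1 -0.31, Hapln4 -0.11 and Nr4a3 -0.024, and on the mean log2 level Acss2 -0.48, Bad -0.16, Ciart -0.23, Dbp -0.15, Gabra5 -0.23, Gabrb2 -0.24, Got2 -0.23, Hdac11 -0.068, Hk1 -0.15, Kat2a -0.40, Mpc2 -0.18, Ncoa1 -0.22, Nr1d1 -0.26, Sirt3 -0.13, Sirt4 -0.25, Sirt5 -0.10 and Txn1 -0.17. List medians that turned were, on summed counts, pan-neuronal markers -0.11, vesicle, SNARE and active zone genes -0.34, synaptotagmins -0.63, postsynaptic scaffolds -0.53, synaptic adhesion genes -0.45, ionotropic glutamate receptors and auxiliary subunits -0.65, metabotropic glutamate receptors -0.35, GABA-A receptor subunits -0.64, excitatory neuron transcription factors -0.72, potassium channels -0.57, sodium, calcium and HCN channels -0.36, neuronal cytoskeleton -0.29, immature neuron genes -0.51, axon guidance genes -0.57, calcium and CREB plasticity genes -0.41, neurotrophin and growth factor receptors -0.81, acetate and acetyl-CoA supply genes -0.63, histone deacetylases and sirtuins -0.82, glucose uptake, glycolysis and lactate genes -0.76, pyruvate entry and citric acid cycle genes -0.68, fatty acid oxidation and ketone genes -0.82, sterol and fatty acid synthesis genes -0.46, heat shock genes -0.70, cytosolic ribosomal protein genes -0.52, mitochondrial ribosomal protein genes -0.61, respiratory chain complex I to V genes -0.37, proteasome subunit genes -0.67 and vacuolar proton pump genes -0.71, and on the mean log2 level vesicle, SNARE and active zone genes -0.20, synaptotagmins -0.48, postsynaptic scaffolds -0.40, synaptic adhesion genes -0.31, ionotropic glutamate receptors and auxiliary subunits -0.51, metabotropic glutamate receptors -0.22, GABA-A receptor subunits -0.50, excitatory neuron transcription factors -0.58, potassium channels -0.43, sodium, calcium and HCN channels -0.22, neuronal cytoskeleton -0.15, immature neuron genes -0.37, axon guidance genes -0.43, calcium and CREB plasticity genes -0.27, neurotrophin and growth factor receptors -0.68, acetate and acetyl-CoA supply genes -0.49, histone deacetylases and sirtuins -0.68, glucose uptake, glycolysis and lactate genes -0.62, pyruvate entry and citric acid cycle genes -0.54, fatty acid oxidation and ketone genes -0.68, sterol and fatty acid synthesis genes -0.32, heat shock genes -0.56, cytosolic ribosomal protein genes -0.38, mitochondrial ribosomal protein genes -0.47, respiratory chain complex I to V genes -0.23, proteasome subunit genes -0.53 and vacuolar proton pump genes -0.57.

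With the marker term, which largely follows the groups, 43 of 108 named genes no longer passed and 12 turned in sign. Acly, Acss2 and Spred3 passed in neither fit, at -0.21, -0.04 and 0.01, and the others were Arc 0.11, Calb2 -0.085, Cck -0.14, Eomes 0.18, Hspb1 0.33, Kcnf1 0.15, Olig1 -1.52, Pvalb 0.73 and Scg2 0.045. Medians that turned there were microglia and macrophage markers 0.40, meningeal fibroblast markers 0.69, neuropeptide precursors 0.17, GABAergic interneuron genes 0.53, neurotrophin and growth factor receptors -0.11, pyruvate entry and citric acid cycle genes -0.022, fatty acid oxidation and ketone genes -0.090, sterol and fatty acid synthesis genes -0.089, Nrf2 oxidative stress genes 0.020 and MHC class I and antigen presentation genes 0.41. The microglial and meningeal markers and Olig1 are part of the term itself, so their values with it are no check.

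Replicate numbers are shared between the groups, but same-numbered libraries did not deviate together (correlations of -0.142 to -0.097, 0 of 4 pairs over 0.1). A fit with the replicate number as a block gave 3384 raised and 3895 lowered genes. Depth limits low genes: in the shallowest library 1 count was worth 0.0508 CPM before the TMM scaling.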
